A study of Homo sapiens with 2 samples.

Results

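The genes of the EGFR family and its ligands were followed in HSC-1 cells after knockdown of the long noncoding RNA LINP1. The set holds 9 of the 44591 genes in the count table, chosen by name: the receptors EGFR, ERBB2 and ERBB3, the ligands HBEGF, AREG, EREG, TGFA and BTC, and the receptor inhibitor ERRFI1. HSC-1 is a cell line from a human cutaneous squamous cell carcinoma. Cells at about 70% confluency received a control siRNA (siNC) or one that targets LINP1 (siLINP1) and were kept for 6 h without serum and then for 24 h in medium with 10% serum, per the labels. Both conditions thus shared the line, the transfection and the serum step, and each had 1 library of total RNA, and the differences given here therefore have no replicate check. The targeted gene, LINP1, was covered by 167 reads in siNC and by 23 in siLINP1, a log2 fold change of -2.65.

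Receptors of the EGFR family are tyrosine kinases of the cell surface that signal as pairs. Their ligands are made as precursors anchored in the membrane, which proteases of the ADAM family cut to release the soluble growth factor. EGFR binds HBEGF, AREG, EREG, TGFA and BTC, ERBB3 binds neuregulins and has a weak kinase, and ERBB2 has no known ligand and serves as a partner of the others. The signal runs through RAS to ERK and through PI3K to AKT, and ERK output induces several of the ligands as well as ERRFI1, which binds the kinase domain and blocks it. In the epidermis this pathway drives proliferation and migration of keratinocytes.

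Reads assigned to genes numbered 18829544 in siNC and 15383081 in siLINP1. Of 10 marker genes of squamous keratinocytes, 5 were under 1 RPKM (reads scaled for gene length and for the library's total) in both libraries, among them KRT5, TP63 and CDH1, and the list summed to 86.9 RPKM in siNC and 75.9 in siLINP1. Of 10 mesenchymal genes, 2 were under 1 RPKM, and the list summed to 2071 and 1698 RPKM, mostly from VIM. All 5 blood cell genes were under 1 RPKM, and CD3E and HBB were at 0 reads. Several defining genes of the labelled cell type thus had few reads in either library. Of the marker genes, 8 of the 10 mesenchymal and 6 of the 10 keratinocyte genes were lower in siLINP1. Among all 19840 genes with at least 10 reads, 10350 were lower and 9487 higher. The lower marker genes included KRT5, DSC3 and COL3A1, whose intervals for counting error spanned 0, so their direction is not set by these reads. Among the other lower marker genes were KRT14 (243 and 87 reads, log2 fold change -1.27), SFN (264 and 138, -0.73), COL1A1 (190 and 79, -1.06) and PDGFRB (369 and 172, -0.89). The remaining lower genes of both lists were VIM (-0.33), SPARC (-0.48), ITGB4 (-0.39), CDH2 (-0.56), FN1 (-0.40), TWIST1 (-0.36) and CDH1 (14 and 3 reads, -2.01). The 4 higher keratinocyte genes were KRT6A (31 and 45 reads, 0.75), PERP (0.48), and TP63 and DSG3, with few reads. The 2 higher mesenchymal genes were ZEB1 (0.55) and COL1A2, the latter with few reads. The part of these differences in the results for the members was not tested.

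Log2 fold changes are those of siLINP1 over siNC, after division of the counts by median-of-ratios size factors. Their 95% intervals were derived from exact Clopper-Pearson limits on the share of a gene's reads that came from siLINP1, and they cover counting error only. In bulk RNA, more cells that express a gene and more RNA per cell cannot be told apart. All 9 members passed the minimum of 10 reads summed over both libraries, and 7 had at least 100 reads.

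Of the ligand genes, HBEGF, AREG, EREG and TGFA were read more often after LINP1 knockdown, as were the inhibitor ERRFI1 and EGFR, while BTC had too few reads to tell and ERBB2 and ERBB3 were near their level in siNC. HBEGF had the largest difference among the well-read members, with a fold of 1.88, followed by AREG with 1.63, TGFA with 1.47, ERRFI1 with 1.43 and EGFR with 1.36. The interval lay above 0 for 6 of the 9 members, against 23% of the 19840 genes kept. It lay below 0 for 2 members, ERBB2 and ERBB3, against 25.6% of all genes, and it spanned 0 for BTC. Whether an interval clears 0 depends on the reads. Among the 13336 genes with at least 100 reads, it lay above 0 for 3843 and below 0 for 4458. Of the 7 members so read, it lay above 0 for 5 and below 0 for 2. By more than 1.5-fold, HBEGF, AREG and EREG were higher and 0 members were lower, against 14.4% higher and 13% lower among all genes kept. Among genes with at least 100 reads, 2 of the 7 members were higher by more than 1.5-fold, against 8.72%, and 0 were lower, against 6.77%. The whole interval lay beyond 1.5-fold for HBEGF alone, against 3.98% of all genes on the higher side and 2.06% on the lower side. The median log2 fold change of the 9 members was 0.52, beside -0.02 over all genes kept.

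**Figure D1:**
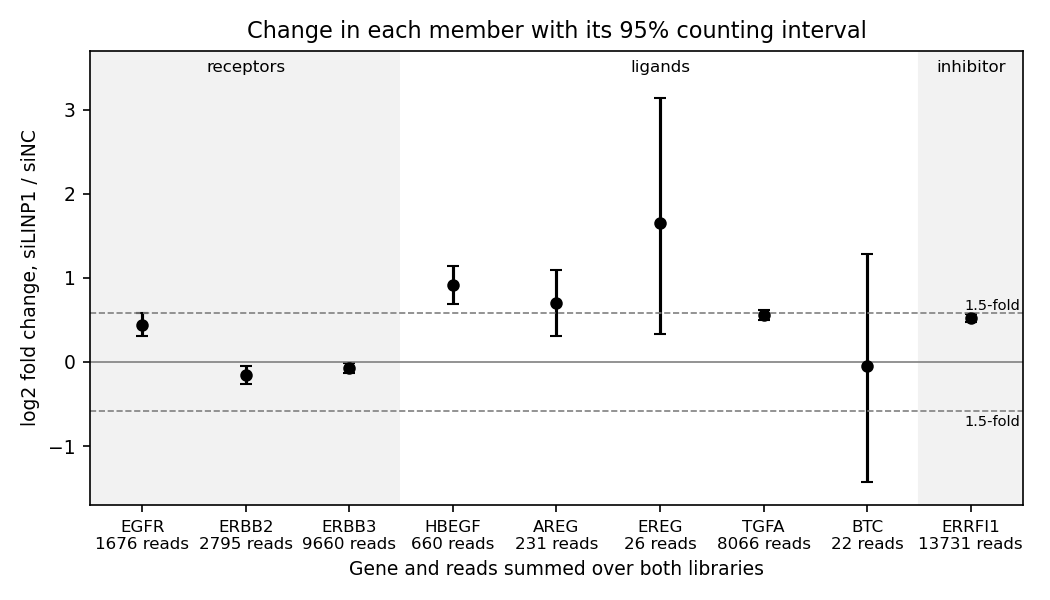
Log2 fold change of each of the 9 members between siLINP1 and siNC (points, 1 library per condition), with bars for the 95% counting interval, dashed lines at a 1.5-fold change and the reads summed over both libraries under each name. HBEGF, at 0.91, is the only member whose whole bar lies beyond the upper dashed line, and the bars of EREG (26 reads) and BTC (22 reads) are the widest.

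The promoters of the ligand genes with the largest folds are shown first, since AREG and EREG are neighbours on chromosome 4 and HBEGF had the most reads of the 3. Of the 9 members, 8 matched the RefSeq promoter table (built on GRCh38.p14), with 10 start sites. ERBB3 had no entry, so its promoter was not searched. Each sequence below holds the 250 bases before the start and was placed on GRCh37, the build of the count table, by an exact match. Capitals mark matches to the cAMP response element (CRE) TGACGTCA and to the TATA box TATAAA.
AREG promoter, chr4:75310603-75310852, plus strand: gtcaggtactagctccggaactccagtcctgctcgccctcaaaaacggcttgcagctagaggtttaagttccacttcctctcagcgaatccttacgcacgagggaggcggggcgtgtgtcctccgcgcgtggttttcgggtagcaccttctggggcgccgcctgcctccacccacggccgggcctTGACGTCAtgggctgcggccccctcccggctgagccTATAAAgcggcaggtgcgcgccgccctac
EREG promoter, chr4:75230612-75230861, plus strand: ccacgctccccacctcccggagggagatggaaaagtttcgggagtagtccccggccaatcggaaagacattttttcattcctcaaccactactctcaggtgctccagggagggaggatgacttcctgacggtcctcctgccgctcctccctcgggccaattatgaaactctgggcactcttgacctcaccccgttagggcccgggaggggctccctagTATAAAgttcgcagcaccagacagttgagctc
HBEGF promoter, chr5:139726189-139726438, minus strand: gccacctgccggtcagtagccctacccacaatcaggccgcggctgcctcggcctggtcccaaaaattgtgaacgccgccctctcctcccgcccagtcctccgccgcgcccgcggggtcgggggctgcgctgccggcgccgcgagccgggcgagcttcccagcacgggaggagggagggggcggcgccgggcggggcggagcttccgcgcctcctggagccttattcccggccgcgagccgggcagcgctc

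The AREG window holds the CRE from 65 to 58 bases before the start, and no other member window did, against 1.65% of the 35116 windows in the table. A TATA box lies 29 bases before the start of AREG and 32 bases before that of EREG, counted to the first base of the match, and 10.7% of all windows hold one. The window of HBEGF holds no match to either, nor to the AP-1 site TGANTCA (6.57% of all windows), the CArG box of serum response factor (1.16%) or the NF-kB site (9.96%). Among all member windows, the AP-1 site matched in EGFR and ERBB2, the NF-kB site in BTC and TGFA, and the CArG box in none. The ETS core CCGGAA, held by 14.5% of all windows, matched in AREG, ERBB2 and TGFA and is not in capitals above. All motifs were searched on both strands, and a match is a run of letters only. The share of G and C was 76.4% in the window of HBEGF, 75.2% in that of ERRFI1 and 58% in that of EREG, beside a median of 58% over all windows. TGFA and EGFR have 2 windows each, at 75.6% and 64% for TGFA and at 73.6% and 38.8% for EGFR. The EGFR window at 38.8% holds matches to the AP-1 site and the TATA box. It ends 90817 bases past the start of EGFR in the count table, inside the gene. The EGFR window at 73.6%, next to that start, holds no match to either.

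**Figure D2:**
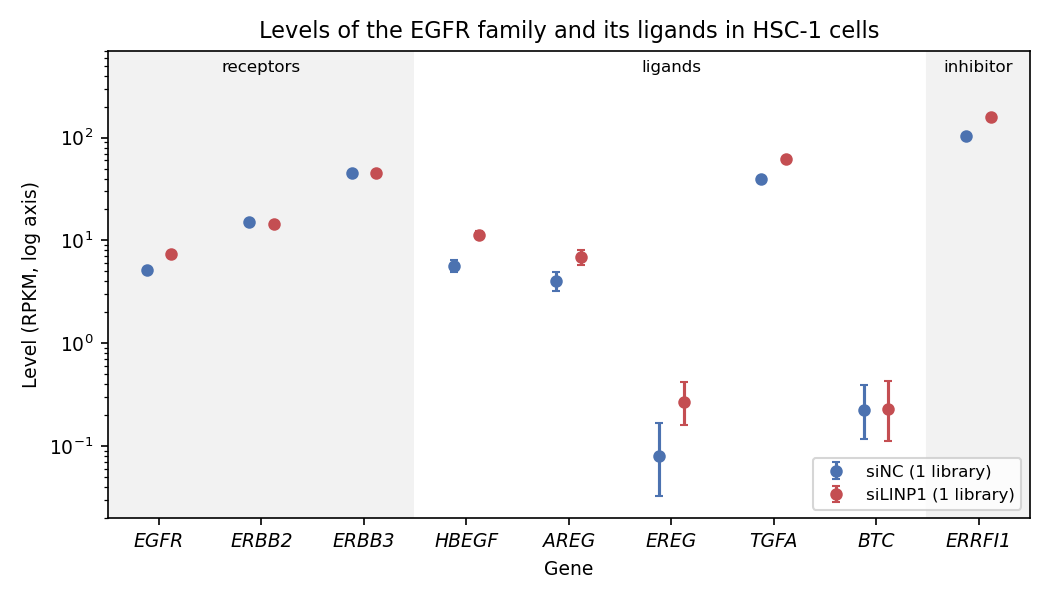
Level of each member in RPKM (log axis) in the siNC and the siLINP1 library, with bars for the exact 95% Poisson interval of its reads. ERRFI1 is the highest in both libraries, at 104.1 and 157.8 RPKM, and EREG and BTC lie below 0.3 RPKM.

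ERRFI1 had the highest level per length in siNC, at 104.1 RPKM, followed by ERBB3 at 45.5 and TGFA at 39.5 RPKM. ERBB2 came next at 15.2 RPKM. HBEGF, EGFR and AREG followed at 5.65, 5.17 and 4.0 RPKM. The counting intervals of HBEGF and EGFR overlapped, as did those of EGFR and AREG, so their order is not set by these reads. BTC at 0.226 RPKM and EREG at 0.0803 RPKM also overlapped. In siLINP1 TGFA, at 61.6 RPKM, stood above ERBB3, at 45.7 RPKM, which is the only change of order that the reads resolve. HBEGF at 11.3 RPKM was again above EGFR at 7.44, here with intervals that did not overlap. EGFR and AREG (6.88 RPKM) overlapped there too, as did EREG and BTC. Among 19233 protein-coding genes, 97.2% had a lower level than ERRFI1 in siNC, and 57.1% had a lower level than EGFR.

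EGFR, the receptor that all of these ligands bind, lies on the plus strand at chr7:55086714-55275773 of GRCh37. It had 770 reads in siNC and 906 in siLINP1, which is higher in siLINP1 before and after scaling. The log2 fold change was 0.44 (95% interval 0.30 to 0.58). ERBB2, the partner receptor without a ligand, lies at chr17:37844337-37884915 and had 1573 and 1222 reads. Its log2 fold change was -0.15 (95% interval -0.26 to -0.05), and its last 163 bases overlap MIEN1 on the other strand, which had 822 and 651 reads. The strand setting of the counting is not given in the sources used here. ERBB3, the neuregulin receptor at chr12:56473809-56497291, was covered by 5307 and 4353 reads, which gave -0.08 on the log2 scale (95% interval -0.13 to -0.02). Scaling by the total count turned this to 0.0058, so the direction for ERBB3 rests on the scaling. For ERBB2 that scaling gave -0.07. The shift of 0.08 exceeds the distance of the upper limit of ERBB2, -0.05, from 0. The interval of ERBB2 thus spans 0 under the total count.

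Ratios of members within a library need no scaling, and 12 were formed. The ratio of EGFR to ERBB2 per length was 0.340 in siNC and 0.515 in siLINP1, a change of 1.51-fold (log2 0.60, 95% interval 0.42 to 0.77). EGFR to ERBB3 went from 0.113 to 0.163 (log2 0.52, 95% interval 0.37 to 0.67). For ERBB2 to ERBB3 the log2 change was -0.08, and its interval from -0.20 to 0.04 spanned 0. EGFR was thus higher relative to both other receptors in siLINP1. ERBB3 still made up most of the receptor level, with 69.1% of the RPKM of the 4 receptor genes in siNC and 67.6% in siLINP1. EGFR made up 7.84% and 11%, and ERBB2 23.1% and 21.4%. The fourth receptor, ERBB4, had only 5 and 7 reads.

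TGFA, the ligand with the highest level, lies on the minus strand at chr2:70674412-70781147. Its reads numbered 3548 in siNC and 4518 in siLINP1, and the log2 fold change was 0.56 (95% interval 0.49 to 0.62). This lay just under a 1.5-fold change, which is 0.58 on the log2 scale. TGFA passed it when scaled by the total count, at 0.64, and on protein-coding genes, at 0.59. HBEGF, the heparin-binding ligand at chr5:139712428-139726188 on the minus strand, had 251 and 409 reads. Its log2 fold change was 0.91 (95% interval 0.68 to 1.15). Of the 13336 genes with at least 100 reads, 433 had a larger log2 fold change than HBEGF and 1258 a larger one than TGFA.

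AREG (amphiregulin) lies on the plus strand at chr4:75310815-75320726 and had 96 reads in siNC and 135 in siLINP1. The log2 fold change was 0.70 (95% interval 0.31 to 1.09). GRCh37 holds a copy of the gene, AREGB, at chr4:75480629-75490486, whose transcript differs from that of AREG at 1 of 1234 aligned bases. The AREG promoter window also matched at both places, and the count table has no row named AREGB. Reads that fit both places can be lost or split in counting, so the level of AREG is uncertain. EREG (epiregulin), at chr4:75230860-75254477, had only 7 and 19 reads. Its log2 fold change was 1.65 with an interval from 0.34 to 3.14, and a pseudocount of 5 gave 1.14. BTC (betacellulin), at chr4:75669969-75719896 on the minus strand, was covered by 12 and 10 reads, and its log2 fold change of -0.05 had an interval from -1.42 to 1.28. At this depth neither a rise nor a fall by 2-fold in BTC was detectable.

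The 7 ligand genes of EGFR, with EGF and EPGN added, summed to 49.7 RPKM in siNC and 80.5 in siLINP1. TGFA made up 79.6% and 76.5% of these sums, HBEGF 11.4% and 14.0%, and AREG 8.04% and 8.54%. TGFA thus remained the largest share of a sum that was larger in siLINP1. RPKM are scaled by the total count, which puts the log2 fold change of TGFA at 0.64 in place of 0.56. Relative to TGFA, HBEGF was higher by 0.36 on the log2 scale (95% interval 0.12 to 0.59). Between HBEGF and AREG the difference was 0.21 (95% interval -0.23 to 0.65), and between AREG and TGFA it was 0.14 (-0.24 to 0.53). HBEGF relative to EGFR was higher by 0.47 on the log2 scale (95% interval 0.20 to 0.74), and TGFA relative to EGFR by 0.11 (-0.04 to 0.27).

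ERRFI1 (also called MIG6), the feedback inhibitor of the receptor kinases, lies on the minus strand at chr1:8071779-8086393. It was the most read member, with 6134 reads in siNC and 7597 in siLINP1, and its log2 fold change was 0.52 (95% interval 0.47 to 0.57). Its ratio to EGFR per length was 20.2 in siNC and 21.2 in siLINP1, a log2 change of 0.07 (95% interval -0.07 to 0.22). Its ratio to TGFA was 2.63 and 2.56, a log2 change of -0.04 (-0.12 to 0.04). Relative to ERBB3 it was higher by 0.59 on the log2 scale (95% interval 0.52 to 0.67). The inhibitor thus stood in nearly the same proportion to EGFR and to TGFA in both libraries, and in a larger proportion to ERBB3 in siLINP1.

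**Figure D3:**
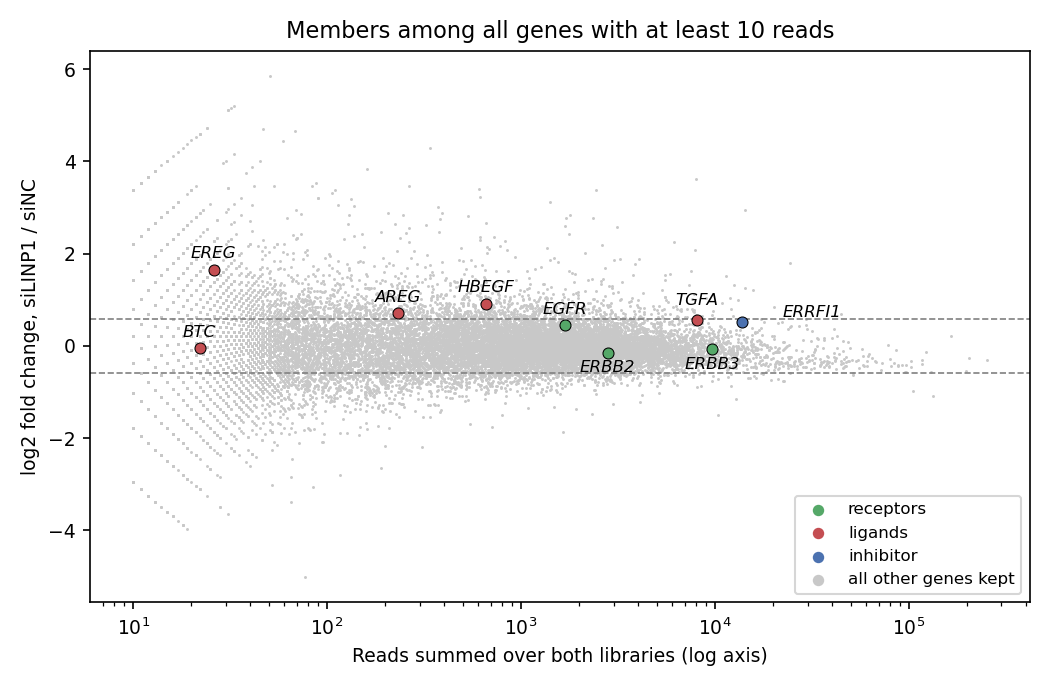
Log2 fold change between siLINP1 and siNC against the reads summed over both libraries (log axis) for all genes with at least 10 reads (grey) and for the 9 members by role, with dashed lines at a 1.5-fold change. TGFA and ERRFI1 lie just under the upper line at 8066 and 13731 reads, and the grey cloud widens toward low counts, where EREG and BTC lie.

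Of the 7 other receptor and ligand genes of the family, NRG1 and NRG2 had at least 100 reads. EGF had 20 and 19 reads in siNC and siLINP1, and EPGN had 1 in each. Among the neuregulins, NRG2 was the best read, with 323 and 236 reads (log2 fold change -0.24, 95% interval -0.49 to 0.003). NRG1 was covered by 192 and 185 reads, and its log2 fold change was 0.16 (95% interval -0.14 to 0.45). NRG4 had 22 and 12 reads, and NRG3 was at 0 in both, which allows up to 3 reads in either. The intervals of NRG1, NRG2 and NRG4 all spanned 0.

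EPGN, EREG, AREG and BTC lie within 545.7 kb of chromosome 4, from 75174187 to 75719896. Within 1 Mb on either side, 11 other genes had at least 10 reads, and beyond 1.5-fold 6 of them were higher and 2 lower, beside 14.4% and 13% of all genes kept. The genes of this stretch were named after their values were known. At lower coordinates than EPGN lie 4 of the 6 higher genes, the chemokine genes CXCL1, CXCL2, CXCL3 and CXCL8. CXCL1 had 807 and 1765 reads (log2 fold change 1.34) and CXCL8 had 1199 and 1730 reads (0.74). An antisense gene on this side had 12 and 5 reads (-1.05, 95% interval -2.91 to 0.55). At higher coordinates than BTC lie the other 2 higher genes, G3BP2 with 784 and 1796 reads (1.41, 95% interval 1.28 to 1.53) and RCHY1 with 220 and 345 reads (0.86, 95% interval 0.61 to 1.11). PARM1, next to BTC among genes with at least 10 reads, had 38 and 18 reads (-0.87, 95% interval -1.76 to -0.02). Higher genes thus lay on both sides of the ligand genes. Of the lower ones, the interval of the antisense gene spanned 0 and that of PARM1 ended near 0, both with few reads.

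The genes around the receptors were taken from 4 lists. Of 12 genes of ligand shedding, all with at least 100 reads, 3 were higher and 1 was lower beyond 1.5-fold, beside 8.72% and 6.77% of all genes so read, with a median log2 fold change of -0.05. Reads of ADAM15 numbered 2020 in siNC and 2977 in siLINP1 (0.77, 95% interval 0.69 to 0.85), and ADAM19 had 1663 and 2413 (0.75, 95% interval 0.66 to 0.84). Their whole intervals lay beyond 1.5-fold. ADAM12 had 56 and 86 reads (0.83, 95% interval 0.33 to 1.34). ADAM17, the main sheddase of TGFA, AREG and HBEGF, had 1502 and 1067 reads (-0.28, 95% interval -0.40 to -0.17), and ADAM10, which sheds EGF and BTC, had 1813 and 1264 (-0.31, -0.42 to -0.21). RHBDF2, which encodes a carrier of ADAM17, was the lower one with 411 and 234 reads (-0.60, 95% interval -0.84 to -0.37). ADAM10, ADAM17 and RHBDF2 were named after their values were seen. The protease genes thus differed in direction among themselves.

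Of 41 genes of adaptors and signal relay, 2 were higher by more than 1.5-fold and 0 lower, beside 14.4% and 13% of all genes kept. The median log2 fold change was -0.02. With at least 100 reads, 1 of 40 was higher and 0 were lower, beside 8.72% and 6.77% of all genes so read. Reads of BRAF, a kinase between RAS and MEK, numbered 186 in siNC and 368 in siLINP1 (1.19, 95% interval 0.94 to 1.46), the only member of this list with its whole interval beyond 1.5-fold. The other of the 2 higher genes was PLCG2, with 43 and 56 reads, named after its value was seen. HRAS had 845 and 489 reads (-0.58, 95% interval -0.74 to -0.42), and the adaptor gene GAB1 had 135 and 80 (-0.55, 95% interval -0.96 to -0.14). Of 33 genes of receptor down-regulation, 32 passed the minimum of reads, 1 was higher by more than 1.5-fold and 0 were lower, beside 8.72% and 6.77% of all genes with at least 100 reads, with a median of 0.02. RAB5A, of early endosomes, had 794 and 1079 reads (0.65, 95% interval 0.52 to 0.79). ZNRF1, a ubiquitin ligase, had 486 and 284 (-0.57, -0.78 to -0.35), and STAM2, of endosomal sorting, had 330 and 203 (-0.49, -0.75 to -0.23). The medians of both lists were near that of all genes.

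The median over the 10 ERK-output genes was 0.31 on the log2 scale, with 8 above 0 and 2 below, beside 6237 above and 7096 below among the 13336 genes with at least 100 reads. By more than 1.5-fold, 2 were higher and 0 lower, beside 8.72% and 6.77% of those genes. Reads of SPRY2, an inhibitor of receptor kinase signalling, numbered 3155 in siNC and 4574 in siLINP1 (0.75, 95% interval 0.68 to 0.81), with its whole interval beyond 1.5-fold. EPHA4 had 260 and 345 reads (0.62, 95% interval 0.38 to 0.86). SPRY4 had 1406 and 1824 (0.58, 95% interval 0.48 to 0.69), at the limit of 1.5-fold. The 2 lower genes, DUSP4 and CCND1, named after their values were seen, had 7383 and 6087 reads (-0.07) and 17993 and 14258 reads (-0.13), and scaling by the total count shifts every log2 fold change by 0.08, which turns the direction of DUSP4. This list and the members thus both had medians above that of all genes. The 95% interval of the median, from the ranked values of the genes, ran from -0.07 to 0.62 for this list. For the members it ran from -0.08 to 0.91. These limits are ranked values of chosen genes, which are not replicates of a condition. They cannot tell whether either list differed from all genes, and no test was made of either.

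The sources used here do not say which siRNA against LINP1 was sequenced, and the study lists a pair of them. Their target sequences are shown with the bases that pair with the seed of the guide strand (bases 2 to 8) in capitals, because short matches of this kind in a 3′UTR can lower other mRNAs.
siLINP1_01 target: ccaactgcgggACTTCAGa
siLINP1_02 target: cactctccagcCTGCAAGa

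In the longest annotated 3′UTR of each of 18026 genes, 16% held the seed match of siLINP1_01 and 13.2% that of siLINP1_02. Of the 9 members, HBEGF held 1 match for siLINP1_01, and EGFR and TGFA held 1 each for siLINP1_02. The other 6 members, AREG, EREG, BTC, ERRFI1, ERBB2 and ERBB3, held no match for either. The 3′UTRs searched ran from 265 bases in AREG to 6011 in EGFR, and the part of such matches in the results was not tested.

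**Figure D4:**
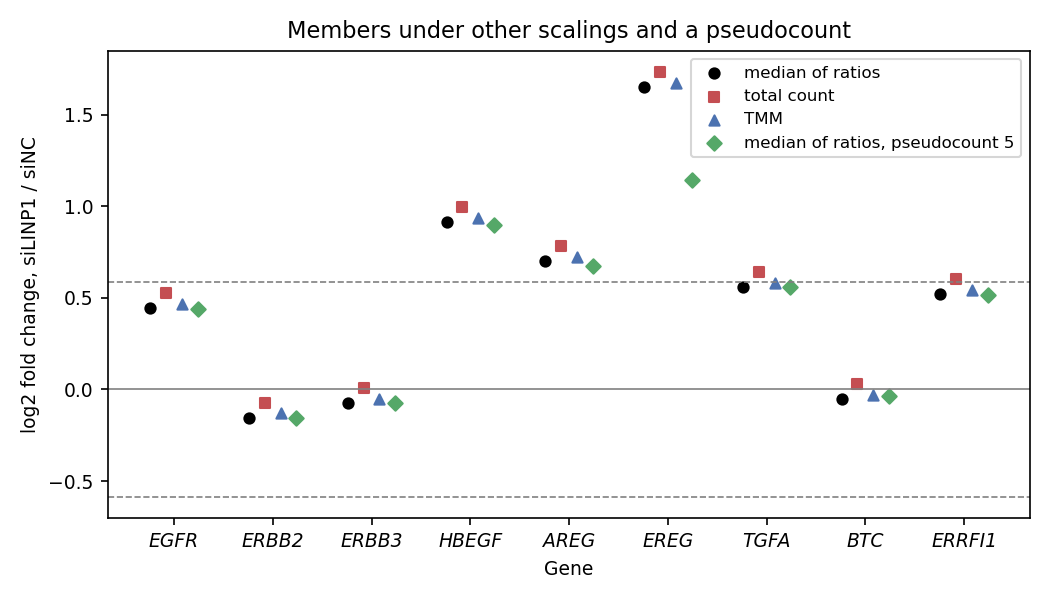
Log2 fold change of each member under median-of-ratios scaling, scaling by the total count, TMM scaling, and median-of-ratios with a pseudocount of 5 on the scaled counts, with dashed lines at a 1.5-fold change. TGFA (0.64) and ERRFI1 (0.60) pass the upper line under the total count alone among these 4 settings, ERBB3 and BTC cross 0 there, and EREG is the member that the pseudocount moves most.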

How the data were processed

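Per the study's methods, total RNA was sequenced by Illumina HiSeq, Tophat2 was the aligner (GRCh37/hg19) and HTSeq the counter. The submitters' notes also name HISAT2 and Bowtie2. Versions, gene annotation and strand setting are not given in the sources used here. The deposited values are raw read counts per gene. The RPKM values that the authors deposited equal the count divided by gene length and by the library's total count. Another 12 columns of per-sample values were not used.

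The members and gene lists were chosen with earlier results of these data known. Size factors (median of ratios) were 1.08 for siNC and 0.930 for siLINP1, genes under 10 summed reads were left out, and no pseudocount was added. A count of 3 reads was taken as the limit that a count of 0 allows. With 1 library per condition no test was made, and 1.5-fold is the fold criterion of the study. Intervals of ratios used the normal approximation of the log ratio of 4 counts. Genes named from a pathway list were the 3 with the largest absolute change among those with at least 100 reads, and any with the whole interval beyond 1.5-fold. All 9 members were found, and the GENCODE annotation of GRCh37 gave the 3′UTRs. The calculations were tested on simulated counts. The tools were R 4.3.3 with edgeR 4.0.16 for TMM factors, and Python 3.11.15 with scipy 1.17.1, pandas 2.3.3, matplotlib 3.10.9 and numpy 2.4.6. The alternatives were total-count and TMM scaling, scaling on protein-coding genes, pseudocounts of 1 and 5, and a minimum of 1 or 100 reads.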

Additional observations from a re-analysis of the deposited data

How the results depend on the processing

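Of 133 recomputed values, 122 stayed within their counting interval, the interval of the list median or 1.5 times the count. For the other family genes, whose median had no interval, the range of the list was used. This share is no measure of robustness, since a pseudocount barely moves well-read genes and a minimum of reads leaves a gene's fold change as it was. BTC was among the 122, though the total count turned it from -0.05 to 0.03. Scaling by the total count turned ERBB3 to 0.0058, gave 0.64 for TGFA and 0.60 for ERRFI1, and so put 5 in place of 3 members above 1.5-fold. Beyond 1.5-fold, 7048 genes were higher and 6456 lower with a minimum of 1 read, which keeps more genes, and 1163 and 903 with a minimum of 100 reads, which keeps fewer. Per size-factor-scaled library, the level of ERBB3 in siNC was 46.8 RPKM, and that of ERRFI1 was 107.1 in siNC and 153.4 in siLINP1. No paired analysis was possible because each condition had 1 library, and no library could be left out. Depth limits EREG and BTC, with 26 and 22 reads.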

Other observations

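The antisense gene EGFR-AS1, inside the span of EGFR on the other strand, had 3 reads in siNC and 6 in siLINP1. TGFA-IT1, inside TGFA on its own strand, had 1 and 3 reads.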
